A study of Homo sapiens with 6 samples.

Results

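Interferon-stimulated genes are the set of genes that cells switch on when a type I or type III interferon binds its receptor. A list of 41 of them was followed across an RNA-seq experiment on PCI-24781, a histone deacetylase (HDAC) inhibitor. The members were taken by gene symbol, matched to the NCBI Gene ID in the processed files, and 40 of the 41 had values among 16623 genes, while CMPK2 was not analysed here. The cells were MDA-MB-231, an established human triple-negative breast cancer line, cultured with serum as adherent cells. The 6 libraries came from cells kept in the solvent DMSO, or in PCI-24781 at 100 nM or 200 nM, and harvested at 24 h or at 48 h. The labels name no added interferon or virus in any library. Each condition had 1 library, so no difference between single libraries has a replicate check or a p-value, and the only test was a fit of dose and time over all 6 libraries.

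Interferon receptors signal through the JAK kinases to transcription factors, among them STAT2, which joins IRF9 in the complex ISGF3. This complex binds a DNA element called the interferon-stimulated response element, placed close to the start of many of the genes listed here. Their products sense viral RNA, block its translation or hold virus particles at membranes, and part of the set is also expressed at a basal level in many tumour lines without added interferon.

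The values are FPKM, which are sequenced fragments divided by transcript length and by the size of the library. A change is the difference in log2(FPKM + 1) between treated cells and the DMSO control of that time, a scale on which the added 1 understates the change of genes with low FPKM. Higher and lower, when counted, mean a change of at least 2-fold on this scale in a gene whose FPKM reached 1 in at least 1 of the compared libraries, and such genes are named expressed. Where 3 values of a time are given, they are in the order DMSO, 100 nM and 200 nM. The depth inferred from the steps between low values was between 15800000 and 18000000 fragments per library, which puts 3 fragments of a 2 kb transcript at an FPKM between 0.0833 and 0.0949. Ranges given below for a ratio of FPKM are exact 95% Clopper-Pearson intervals on the inferred fragments, and they cover counting error only. The DMSO libraries differed from each other in more genes than either 48 h comparison with PCI-24781, with 286 genes higher and 15 lower after 48 h. The members as a list are therefore also placed against both of them. Ratios and changes of single genes are against the DMSO library of the same time unless another is named. Time in culture and a property of the 24 h DMSO library cannot be told apart here. These are bulk samples, in which fewer expressing cells and less RNA per cell cannot be told apart either.

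VIM and AXL, which mark this mesenchymal-like line, had FPKM values from 1629.38 to 2053.39 and from 333.36 to 486.08, ESR1 and PGR were at or below 0.04, and ERBB2 was between 13.16 and 21.36. Of 10 immune cell markers 7 had values, and they summed to 1.73 in DMSO 24 h, 1.85 with 100 nM for 24 h, 2.43 with 200 nM for 24 h, 2.84 in DMSO 48 h, 4.25 with 100 nM for 48 h and 3.54 with 200 nM for 48 h. The macrophage gene CSF1R was between 0.26 and 2.06 and highest with 100 nM for 48 h, the monocyte gene CD14 was between 0.28 and 1.47 and lowest in DMSO 24 h, and the common leukocyte gene PTPRC was between 0.76 and 1.01. The T cell gene CD3E was at or below 0.04. All 6 fibroblast markers had values, and they summed to 2.70, 4.64 and 9.77 after 24 h and to 4.10, 2.88 and 7.44 after 48 h. All 4 endothelial markers had values, and they summed to 1.34, 2.06 and 3.18 and to 2.87, 2.46 and 4.65. The sums were thus highest in the 200 nM library of each time, through COL1A1, PDGFRB, KDR and PECAM1, while the fibroblast gene DCN stayed at or below 0.07 and the endothelial genes CDH5 and VWF at or below 0.03. Their part in the results was not tested.

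The response element was looked for because ISGF3 binds it near the start of many of these genes, although the list was not defined by it. Its core was written as GAAANNGAA, in which N is any base, and was searched on both strands from 250 bases before to 50 bases after the start of each gene, in RefSeq promoter sequences of build GRCh38.p14. Of the 41 members, 32 with values also had a promoter sequence, and 21 of the 32 (65.6%) held the core at least once. The share was 6.63% among 13287 genes of the files and 8.29% among 27305 promoters of all genes. A match is a description of the letters and not a measured binding site. The stretches below belong to the 6 members with a match before their start, an FPKM that reached 1 and the largest changes in a PCI-24781 library, and they are printed 5′ to 3′ on the strand of the gene. IFITM1 has another match that spans its start and lies outside the printed stretch. Capitals mark the core, or its reverse complement TTCNNTTTC where the match is on the other strand.
IFI6 (chr1:27672257-27672368, minus strand): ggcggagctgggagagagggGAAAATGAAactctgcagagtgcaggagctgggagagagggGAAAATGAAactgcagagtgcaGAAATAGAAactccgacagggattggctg
IFIT3 (chr10:89327822-89327904, plus strand): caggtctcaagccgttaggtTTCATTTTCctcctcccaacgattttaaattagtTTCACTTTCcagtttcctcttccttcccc
IFITM1 (chr11:313980-314028, plus strand): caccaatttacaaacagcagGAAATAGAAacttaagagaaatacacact
IFI44 (chr1:78649752-78649788, plus strand): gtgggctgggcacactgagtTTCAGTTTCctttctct
IFI27 (chr14:94110609-94110669, plus strand): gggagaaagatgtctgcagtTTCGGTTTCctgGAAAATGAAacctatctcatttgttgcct
DDX60 (chr4:168318777-168318860, minus strand): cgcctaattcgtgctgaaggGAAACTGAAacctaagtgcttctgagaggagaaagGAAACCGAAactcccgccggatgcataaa

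Before any comparison, the list was unevenly expressed. In every library 28 of the 40 members had an FPKM of at least 1, and 7 had at least 10. The highest was IFITM3, a membrane protein that blocks the entry of enveloped viruses, with FPKM values from 297.42 to 547.29. IFITM2, from 69.33 to 147.56, and IFIT3, from 25.00 to 84.89, were next, followed by ISG15 from 30.67 to 58.91. At the other end, 4 members stayed under 1 in all 6 libraries. These were MX2 (0.12 to 0.33), RSAD2 (0.11 to 0.23), IFI44L (0.14 to 0.56) and TRIM22 (0.16 to 0.43), of which MX2, RSAD2 and TRIM22 encode restriction factors. MX1, a GTPase often used as a marker of the interferon response, was between 0.80 and 1.16.

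With 200 nM for 24 h, 7 members were lower and 2 were higher than in DMSO 24 h, of 34 expressed members. Among all expressed genes, 1.48% were lower and 4.47% were higher, while the members' shares were 20.6% and 5.88%. The 7 lower members were IFIT2, IFIT3, OAS2, OASL, HERC6, IFI35 and IFI44, and the 2 higher ones were IFI6 and IFI27. The median change of all 40 members was -0.23, with quartiles of -0.78 and 0.01, and over the 34 expressed it was -0.46. Over all expressed genes the median was 0.01, with quartiles of -0.25 and 0.31. Below 0 were 30 members and above 0 were 10. With 100 nM for 24 h, 0 members were lower and 1, IFI6, was higher, of 35 expressed, beside 0.131% and 1.35% of all expressed genes. The median change of the members was -0.13, with 26 of them below 0, and that of all expressed genes was 0.01. Both doses after 24 h share the DMSO 24 h library, so their values are given side by side and are not independent.

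**Figure D1:**
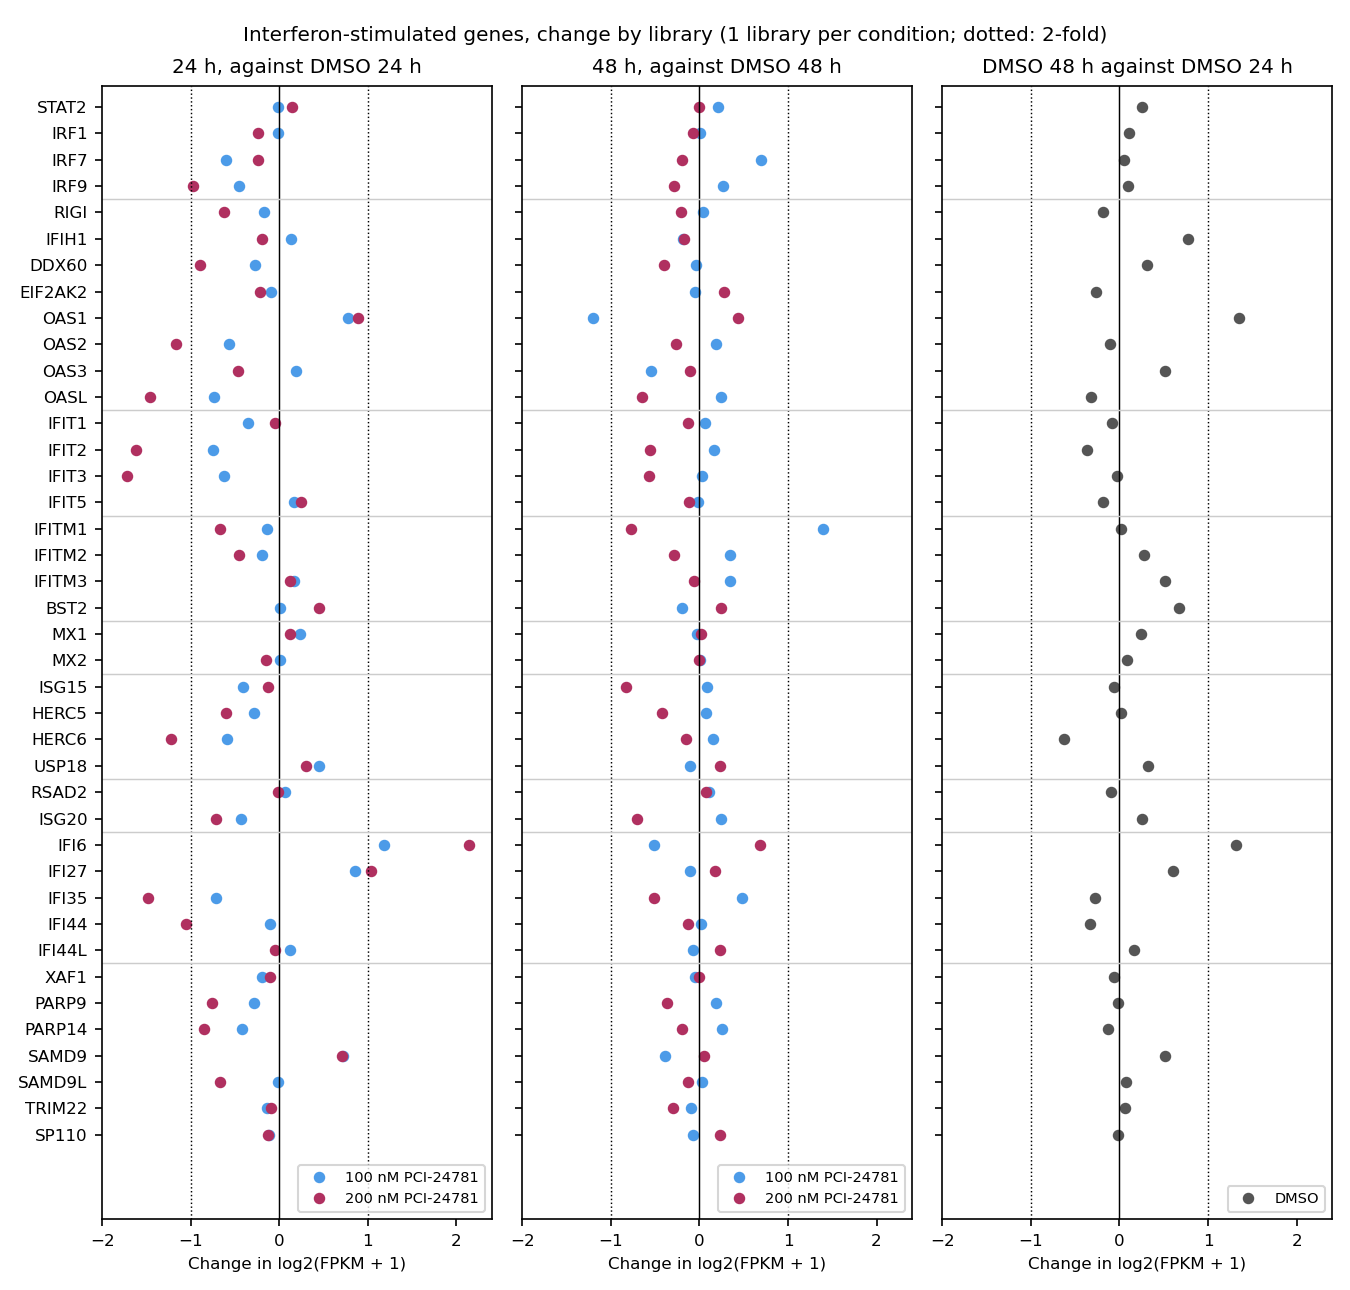
Change in log2(FPKM + 1) of the 40 interferon-stimulated genes (rows, grouped by role) after 24 h and 48 h against DMSO of the same time, and between the DMSO libraries. Each point is 1 library against 1 library and the dotted lines mark 2-fold; after 24 h the 200 nM points reach from -1.72 (IFIT3) to 2.14 (IFI6), and after 48 h they lie between -0.83 and 0.68.

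After 48 h the changes at 200 nM lay in a narrower range than after 24 h. There, 0 members were lower and 0 were higher than in DMSO 48 h, of 36 expressed members, beside 0.06% and 0.206% of all expressed genes. The median change of the members was -0.13, with 27 below 0, 11 above 0 and 2 at 0, and the values reached from -0.83 for ISG15 to 0.68 for IFI6. At 100 nM the changes were between -1.20 and 1.40 after 48 h and between -0.75 and 1.18 after 24 h, and after 48 h 1 member was lower (OAS1) and 1 was higher (IFITM1), beside 0.408% and 0.0608% of all expressed genes, and the median was 0.03. Over all expressed genes the median was 0.01 at 200 nM and -0.01 at 100 nM. Here 24 members were above 0 and 16 were below. Between the DMSO libraries, 2 members were higher after 48 h than after 24 h, OAS1 and IFI6, and 0 were lower, of 36 expressed, beside 2.49% and 0.131% of all expressed genes. The median change of the members between the DMSO libraries was 0.06.

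**Figure D2:**
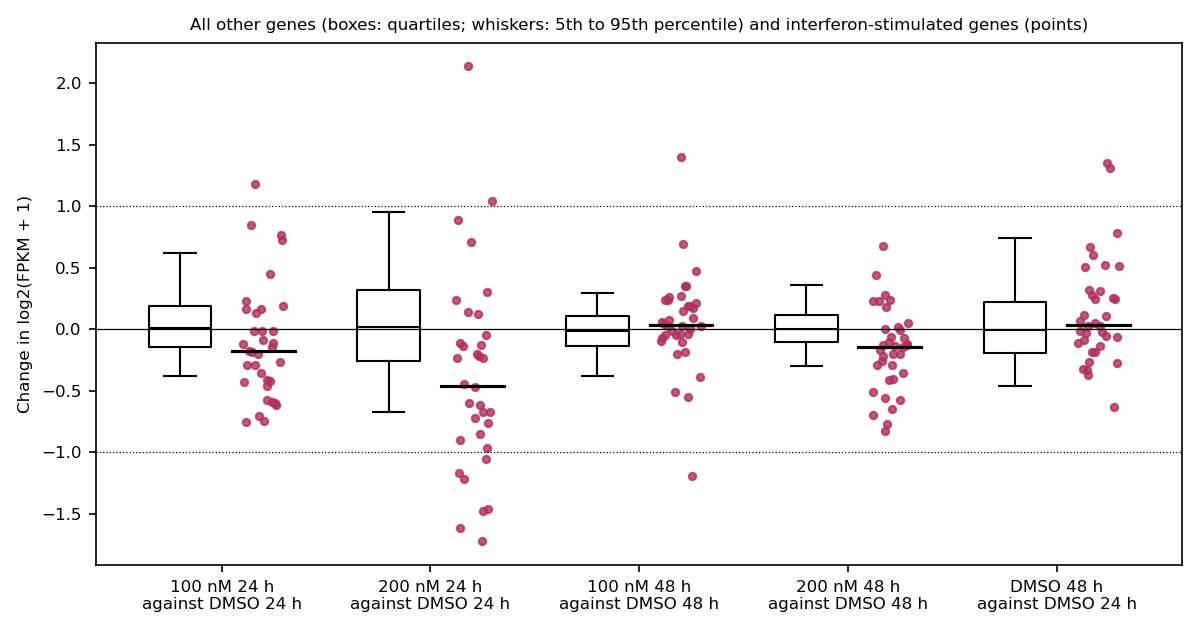
Change in log2(FPKM + 1) in the 5 comparisons, over genes whose FPKM reached 1 in a compared library. Boxes show the quartiles of all other genes, whiskers their 5th to 95th percentile, points the members and thick lines their median; the member median is lowest with 200 nM for 24 h, at -0.46, beside 0.01 for all expressed genes.

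Because the 24 h comparisons rest on 1 DMSO library, each PCI-24781 library was also placed against the range of the DMSO libraries of both times. With 200 nM for 24 h, 24 of 34 expressed members (70.6%) were below both DMSO libraries and 4 (11.8%) were above both, whereas of all expressed genes 35.5% were below and 38.2% above. With 100 nM for 24 h, 21 of 35 expressed members (60.0%) were below both and 4 (11.4%) were above, beside 24.9% and 30.0% of all expressed genes. For 200 nM after 48 h, 21 of 36 (58.3%) were below and 9 (25.0%) were above, beside 35.3% and 36.8%. The library of 100 nM 48 h went the other way, with 5 of 36 members (13.9%) below and 15 (41.7%) above, beside 31.8% and 28.2%. With DMSO 48 h in place of DMSO 24 h as the reference for 200 nM 24 h, 7 members were lower, and 5 of them were among the 7 named above: IFIT2, IFIT3, OAS2, OASL and IFI35. IRF9 and DDX60 took the place of HERC6 and IFI44, and 0 members were higher. The share of all genes called against this reference was not counted, so these counts cannot be set beside it.

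The libraries were also fitted together in limma, with dose and time as terms, which assumes 1 dose effect at both times and leaves 2 residual degrees of freedom. This fit was added after the data were seen, and it covered 36 members and 11893 genes whose FPKM reached 1 in any library. At a Benjamini-Hochberg adjusted p under 0.05, 0 members were higher or lower at either dose, as were 0% of all genes. At an unadjusted p under 0.05, 15 members were lower and 1, IFI6, was higher at 200 nM, beside 6.68% and 8.29% of all genes. At 100 nM 0 members were lower and 0 were higher, beside 0.0841% and 0.143%. The fitted change at 200 nM was -1.15 (SE 0.249, limma adjusted p = 0.326) for IFIT3, which was lower in 2 of 2 libraries, and 1.41 (SE 0.376, limma adjusted p = 0.326) for IFI6, which was higher in 2 of 2. Leaving out DMSO 48 h leaves 1 DMSO library and 1 residual degree of freedom, and some members then passed an adjusted p under 0.05 at 200 nM. Without any of the other 5 libraries the count stayed at 0. Shares of all genes were not counted for these fits, so this is not a result about the members.

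Among the signalling and transcription factors, IRF9 had the largest change with 200 nM for 24 h. It had an FPKM of 9.49 in the 24 h DMSO library, 6.63 with 100 nM for 24 h and 4.37 with 200 nM for 24 h, and 10.28 in DMSO 48 h, 12.62 with 100 nM for 48 h and 8.22 with 200 nM for 48 h. The 200 nM 24 h library was thus the lowest of the 6, at 0.46 times DMSO 24 h (0.375 to 0.565), and its change of -0.97 lay just under the 2-fold threshold. STAT2, the partner of IRF9 in ISGF3, had 9.06, 8.97 and 10.10 after 24 h and 10.96, 12.85 and 10.94 after 48 h, with changes between -0.01 and 0.21. In the 200 nM 24 h library, IRF9 was thus below both DMSO libraries and STAT2 lay between them. IRF7, the amplifier of interferon production, had 2.17, 1.09 and 1.69 after 24 h and 2.28, 4.32 and 1.86 after 48 h, so that its highest value was with 100 nM for 48 h. IRF1, which interferon gamma induces most strongly, was between 6.17 and 8.19 in all libraries.

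The IFIT genes encode proteins with tetratricopeptide repeats that bind foreign RNA, and their values separated within the family. They form a cluster on chromosome 10. Gene coordinates here are those of the files, and the submitters' processing notes name hg19. IFIT3 (NCBI Gene ID 3437, chr10:91087576-91100725) had an FPKM of 84.89 in the 24 h DMSO library, 55.08 with 100 nM for 24 h and 25.00 with 200 nM for 24 h, and 82.95, 84.56 and 55.50 after 48 h. The DMSO libraries were close to each other, and the 200 nM libraries of both times were below them, at 0.294 times (0.275 to 0.315) after 24 h and 0.669 times (0.634 to 0.706) after 48 h. IFIT2 (NCBI Gene ID 3433, chr10:91061706-91069033), which encodes a partner of IFIT3, had 25.66, 14.83 and 7.68 after 24 h and 19.64, 22.23 and 12.99 after 48 h. Its ratio at 200 nM was 0.299 (0.269 to 0.332) after 24 h and 0.661 (0.602 to 0.726) after 48 h. IFIT1 (chr10:91152303-91166244), which binds RNA caps that lack a methyl group, had 24.41, 18.92 and 23.60 after 24 h and 22.99, 24.02 and 20.91 after 48 h. Its ratio with 200 nM for 24 h was 0.967 (0.907 to 1.03), and with 100 nM for 24 h it was 0.775 (0.725 to 0.829). IFIT5 was between 8.07 and 12.17 and was highest with 200 nM for 24 h. After 24 h, IFIT2 and IFIT3 were therefore lower at 200 nM and IFIT1 and IFIT5 were not, and the promoter sequences of IFIT1, IFIT3 and IFIT5 all held the element core.

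**Figure D3:**
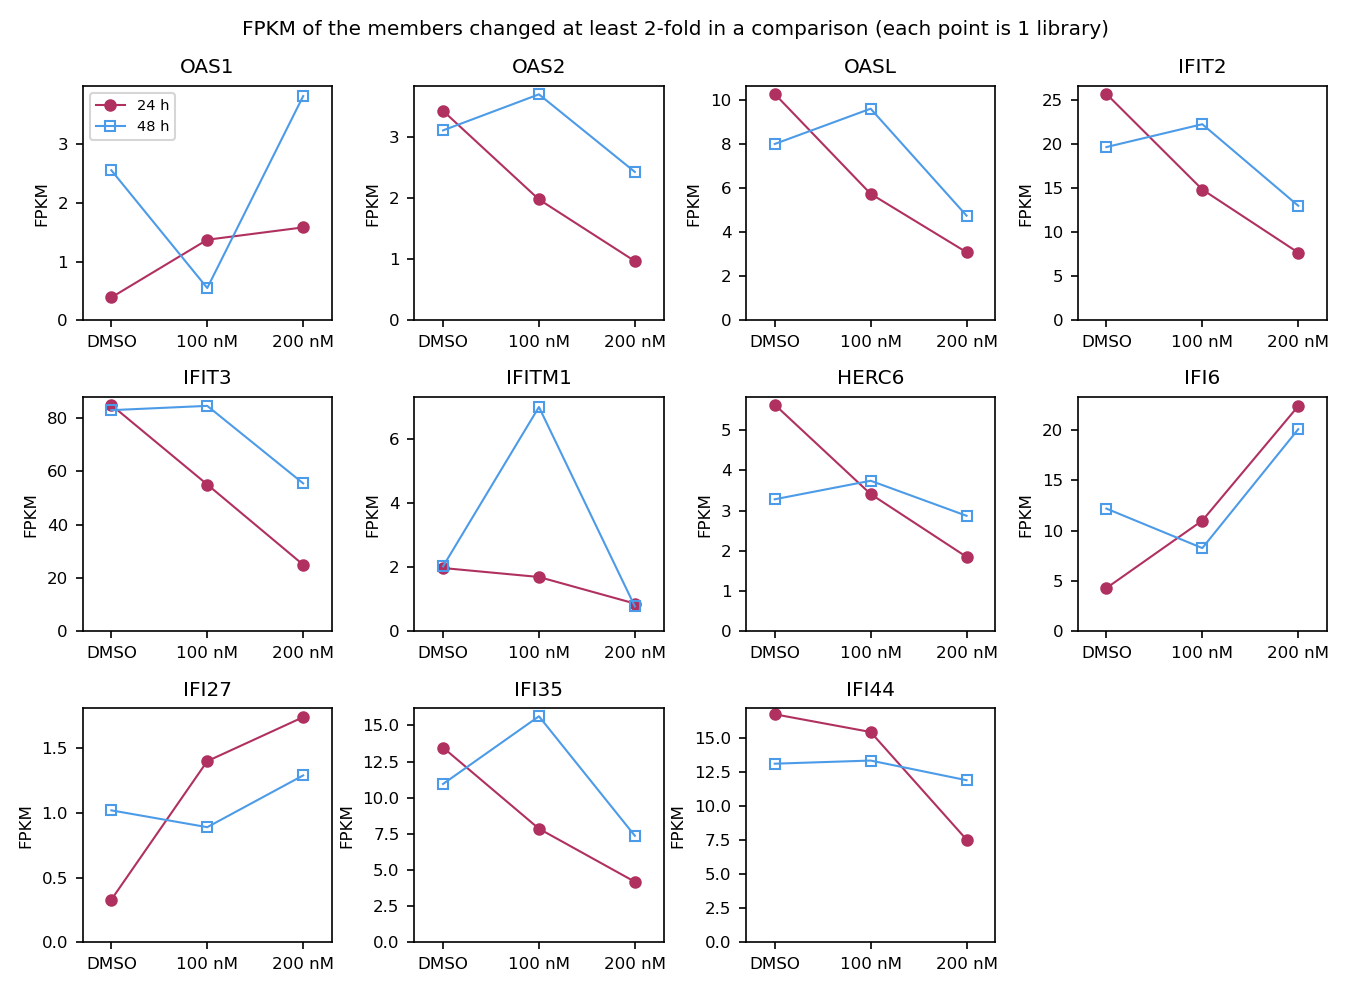
FPKM (axes from 0) of the 11 members that changed at least 2-fold in 1 or more comparisons, by dose, with filled circles for 24 h and open squares for 48 h; each point is 1 library and there are no error bars. IFIT3 goes from 84.89 to 25.00 after 24 h and from 82.95 to 55.50 after 48 h, IFI6 goes from 4.30 to 22.36 after 24 h, and OAS1 and IFITM1 have an outlying value with 100 nM for 48 h.

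Of the 8 RNA sensors and their effectors, 2, OAS2 and OASL, were lower with 200 nM for 24 h, and the median change over the 8 genes was -0.54. OASL, an oligoadenylate synthetase-like protein without enzyme activity that enhances RIG-I signalling, had an FPKM of 10.27, 5.74 and 3.09 after 24 h and 8.0, 9.60 and 4.75 after 48 h. Its 200 nM values were the lowest of each time, at 0.301 times DMSO (0.235 to 0.381) after 24 h and 0.594 times (0.474 to 0.738) after 48 h. OAS2, which makes the second messenger that activates RNase L, had 3.43, 1.98 and 0.97 after 24 h and 3.11, 3.70 and 2.43 after 48 h. OAS1, an enzyme of the same family, went the other way, with 0.39, 1.37 and 1.58 after 24 h and 2.55, 0.55 and 3.81 after 48 h. Its low values were those of DMSO 24 h and 100 nM 48 h, at about 13 and 19 fragments, while the other libraries had between 45 and 115. Against DMSO 48 h, the change of OAS1 with 200 nM for 24 h was -0.46 and not 0.89, so its direction depended on the DMSO library. With 100 nM for 48 h it was -1.20 against DMSO 48 h and 0.16 against DMSO 24 h. OAS3 was between 3.05 and 6.98 and lowest with 200 nM for 24 h. RIGI, the gene of the sensor RIG-I, had 17.08, 15.02 and 10.77 after 24 h and 14.87, 15.36 and 12.68 after 48 h. DDX60, a helicase linked to RIG-I signalling, had 3.48, 2.72 and 1.40 after 24 h and 4.56, 4.42 and 3.21 after 48 h. RIGI and DDX60 were both lowest in the 200 nM library of each time. IFIH1, which encodes the sensor MDA5, had 4.0, 4.47 and 3.35 after 24 h and 7.59, 6.57 and 6.63 after 48 h, so that it separated the times more than the doses. EIF2AK2, the kinase PKR that halts translation, stayed between 15.69 and 19.96.

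Among ISG15 and the genes grouped with it, HERC6 was the only one past 2-fold in any comparison. ISG15 is a ubiquitin-like protein, HERC5 attaches it to other proteins, and USP18 removes it and restrains receptor signalling. ISG15 (chr1:948847-949920) had an FPKM of 57.91, 43.29 and 52.83 after 24 h and 55.33, 58.91 and 30.67 after 48 h. Its lowest value was therefore with 200 nM for 48 h, at 0.554 times DMSO 48 h (0.482 to 0.637), while with 200 nM for 24 h the ratio was 0.912 (0.816 to 1.02). HERC5 had 13.83, 11.16 and 8.78 after 24 h and 14.08, 14.87 and 10.31 after 48 h. Its neighbour HERC6 had 5.63, 3.41 and 1.85 after 24 h and 3.28, 3.74 and 2.87 after 48 h, and since the DMSO libraries differed, its change with 200 nM for 24 h was -1.22 against DMSO 24 h and -0.59 against DMSO 48 h. USP18, whose reads can be shared with a near-identical paralog, was between 0.68 and 1.46.

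The genes named IFI belong to several families, and they gave the widest range. IFI6 (NCBI Gene ID 2537, chr1:27992572-27998724), a small membrane protein reported to restrain apoptosis and flavivirus replication, had an FPKM of 4.30 in the 24 h DMSO library, 11.00 with 100 nM for 24 h and 22.36 with 200 nM for 24 h, and 12.19, 8.27 and 20.07 after 48 h. It was highest in the 200 nM libraries of both times, at 5.20 times DMSO (3.97 to 6.92) after 24 h and 1.65 times (1.36 to 2.0) after 48 h. Against DMSO 48 h its change with 200 nM for 24 h was 0.82, which is the same direction but under 2-fold. With 100 nM for 24 h the change was 1.18 against DMSO 24 h and -0.14 against DMSO 48 h, so this direction depended on the DMSO library. IFI27 had 0.33, 1.40 and 1.74 after 24 h and 1.02, 0.89 and 1.29 after 48 h. In DMSO 24 h it rested on about 4 fragments, and its ratio of 5.27 with 200 nM for 24 h had an interval from 1.63 to 19.9. The change of IFI27 in that library was 1.04 against DMSO 24 h and 0.44 against DMSO 48 h. IFI35, which binds NMI in the cytoplasm, had 13.47, 7.86 and 4.19 after 24 h and 10.95, 15.63 and 7.37 after 48 h, and was lowest in the 200 nM library of each time. Its ratio at 200 nM was 0.311 (0.243 to 0.395) after 24 h and 0.673 (0.541 to 0.828) after 48 h. IFI44 had 16.71, 15.41 and 7.53 after 24 h and 13.09, 13.32 and 11.88 after 48 h, so that only the 200 nM 24 h library stood apart, with a change of -1.05 against DMSO 24 h and of -0.72 against DMSO 48 h.

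Among the membrane proteins, IFITM1 was the only gene past 2-fold. A relative of IFITM3 found mostly at the cell surface, it had an FPKM of 1.98, 1.70 and 0.87 after 24 h and 2.03, 7.01 and 0.78 after 48 h. The value with 100 nM for 48 h was 3.45 times DMSO 48 h (2.27 to 5.27), and the other 5 libraries were between 0.78 and 2.03. IFITM2 and IFITM3 were also highest with 100 nM for 48 h, with 147.56 and 547.29, beside 115.41 and 427.93 in DMSO 48 h. The IFITM genes are similar in sequence and lie within a short stretch of chromosome 11, so reads can be split between them and their values are less certain than those of single-copy genes. BST2, which tethers budding viruses and is also called tetherin, was between 0.38 and 1.60.

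The remaining members held PARP9 and PARP14, which encode ADP-ribosyltransferases and lie near each other on chromosome 3. PARP14 had 6.74, 4.77 and 3.30 after 24 h and 6.06, 7.46 and 5.15 after 48 h, and PARP9 had 5.23, 4.09 and 2.68 after 24 h and 5.16, 6.02 and 3.81 after 48 h. In both, the 200 nM library was the lowest of its time. SAMD9 and SAMD9L, growth-restraining neighbours on chromosome 7, differed. SAMD9 had 7.77, 13.48 and 13.38 after 24 h and 11.54, 8.58 and 11.97 after 48 h, and SAMD9L had 2.64, 2.60 and 1.28 after 24 h and was between 2.48 and 2.90 after 48 h. ISG20, an exonuclease that degrades single-stranded RNA, had 2.12, 1.32 and 0.89 after 24 h and 2.73, 3.39 and 1.30 after 48 h. SP110 was between 4.23 and 5.65 and XAF1, an antagonist of the apoptosis inhibitor XIAP, was between 1.30 and 1.65, with no change beyond 0.23 for either in the 4 comparisons with PCI-24781.

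Members that lie near each other on a chromosome had like changes in some places and unlike changes in others. There were 8 runs of members whose starts lay under 200 kb apart, holding 20 members. With 200 nM for 24 h, the changes from IFIT2 to IFIT5 were -1.62, -1.72, -0.05 and 0.24 in chromosomal order. In the run OAS1, OAS3 and OAS2 (chr12:113344582-113449528) they were 0.89, -0.47 and -1.17. PARP9 and PARP14, at -0.76 and -0.85, and HERC6 and HERC5, at -1.22 and -0.60, had negative values in each gene, of which HERC6 alone passed 2-fold. IFI44L and IFI44 had -0.05 and -1.05, and SAMD9 and SAMD9L had 0.71 and -0.67.

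**Figure D4:**
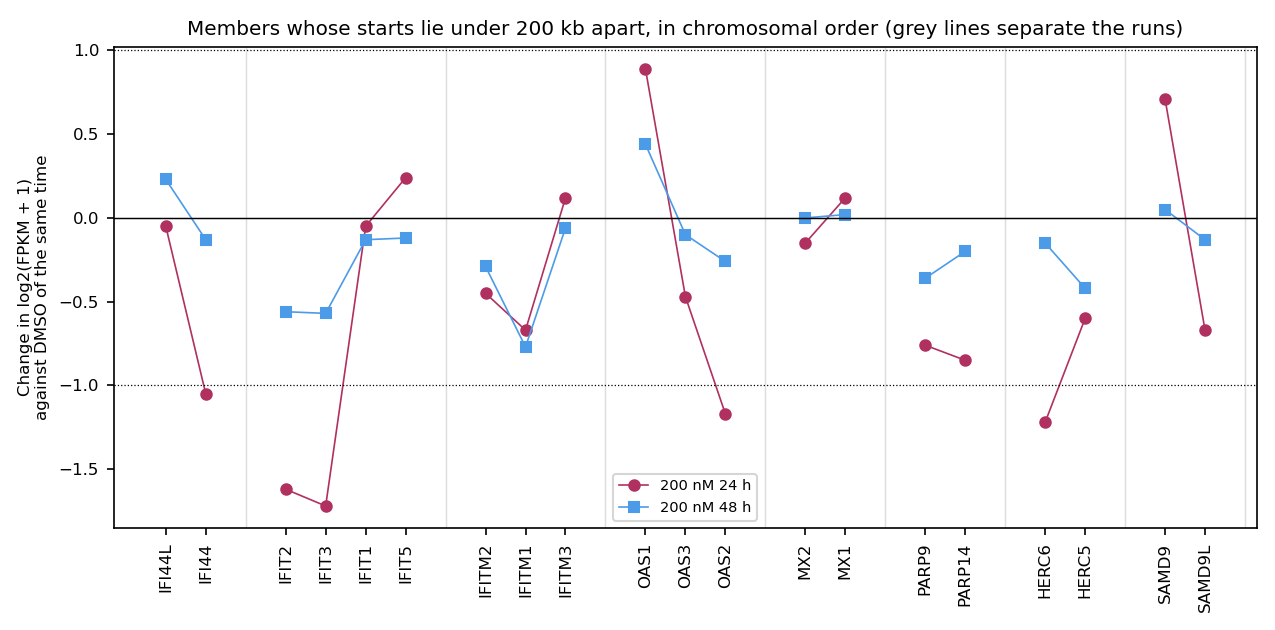
Change in log2(FPKM + 1) of 20 members in 8 runs of chromosomal neighbours, with 200 nM for 24 h (circles) and 200 nM 48 h (squares) against DMSO of the same time; each point is 1 library against 1 library, grey lines separate the runs and dotted lines mark 2-fold. IFIT2 and IFIT3, at -1.62 and -1.72, stand apart from IFIT1 and IFIT5, at -0.05 and 0.24.

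Members with and without the element core were found among the lower genes, IFIT3 and IFI44 with it and HERC6 and IFI35 without it. The other lower members, IFIT2, OAS2 and OASL, had no promoter sequence to search. With 200 nM for 24 h, the 21 members with the core had a median change of -0.13, between -1.72 for IFIT3 and 2.14 for IFI6, both of which are printed above. The 11 members without it had a median of -0.62, between -1.48 and 0.89. Among members with the core, BST2, MX1, RSAD2 and IFI44L did not reach an FPKM of 1 in this comparison, while all those without it did. The added 1 understates changes of such low genes, so these medians are not over like genes. After 48 h of 200 nM the medians were -0.12 and -0.13. The absence of a match says only that these letters are not in this window.

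The rest of the pathway was examined with 62 further genes, of which 40 had values. Of the 21 interferon ligand genes, 0 were analysed here. The receptor genes had moderate values with small changes. IFNAR1 and IFNAR2, which form the type I receptor, were between 10.43 and 12.74 and between 6.57 and 9.24, and IFNGR1 and IFNGR2, which form the interferon gamma receptor, were between 15.96 and 22.45 and between 17.73 and 28.23. IFNLR1, the specific chain of the type III receptor, was between 0.50 and 0.82. With 200 nM for 24 h, 1 of 34 expressed pathway genes was lower and 1 was higher, beside 1.48% and 4.47% of all expressed genes. With 100 nM for 24 h 0 were lower and 1 was higher, beside 0.131% and 1.35%. After 48 h 0 passed 2-fold at either dose. The shares of all genes there were 0.408% lower and 0.0608% higher at 100 nM, and 0.06% and 0.206% at 200 nM. Counts of 0 or 1 do not set this list apart from all genes. The lower gene was DHX58, which encodes the RIG-I-like receptor LGP2, with 1.69, 1.29 and 0.30 after 24 h and 1.76, 1.65 and 1.22 after 48 h. The higher gene was GBP2, a guanylate-binding protein, with 2.96, 7.80 and 7.97 after 24 h and 10.25, 8.18 and 12.90 after 48 h. GBP2 was higher in the later DMSO library as well, by 1.51 on the log2 scale, so its low value was that of the DMSO 24 h library. The 12 sensing and adaptor genes had a median change of -0.35 with 200 nM for 24 h and of -0.10 with 200 nM for 48 h. Among them CGAS, the cytosolic DNA sensor, had 23.94, 18.72 and 14.62 after 24 h and between 16.27 and 17.21 after 48 h. Its change with 200 nM for 24 h was -0.68, under 2-fold, and its value in DMSO 48 h, 16.27, was closer to that of 200 nM 24 h than to DMSO 24 h. In that library TICAM1, IRF3 and ZBP1 of this group went the other way, at 0.55, 0.33 and 0.11.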

How the data were processed

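RNA-seq values of 6 MDA-MB-231 libraries were used, 1 per dose and time, grouped by the GEO titles. The authors deposited FPKM for 16623 genes, with 2 decimals. The submitters' processing notes name Bowtie2, RSEM and hg19, with no version. RNA was sequenced by a company after mRNA enrichment or rRNA depletion. RefSeq (GRCh38.p14) paired the NCBI Gene IDs with symbols and named 16585 of 16623 genes. The members and lists were chosen with earlier results of these data known.

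A change is the difference in log2(FPKM + 1), called at 2-fold where the FPKM reached 1 in a compared library. No count test was run, since the files hold no counts. A limma fit (log2(FPKM + 1), dose and time, trend) over the 6 libraries was added after the data were seen. Depth was inferred from the steps between FPKM values under 0.6 of genes with 1 transcript of 600 to 1500 bases (GENCODE lengths), using between 304 and 347 genes per library, and member fragments are approximate. A fragment count could not be given for SAMD9L. All 40 members with values are described. Alternatives were pseudocounts of 0.1 and 0.01, filters, TPM, median-of-ratios factors, a 1.5-fold threshold and the DMSO library of the other time. Python 3.11.15, numpy 2.4.6, pandas 2.3.3, scipy 1.17.1, matplotlib 3.10.9, R 4.3.3 and limma 3.58.1 were used.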

Additional observations from a re-analysis of the deposited data

Results flagged for a closer look

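Members were marked when their changes at the same dose had opposite directions after 24 h and 48 h, with at least 0.5 on the log2 scale at each time, a limit chosen after the values were seen. The planned rule asked for opposite directions at both doses together, with a lower limit, and the rule used here replaced it. Opposite directions by the rule used here held for 3 members at 100 nM and for 0 at 200 nM. These 3 members do not meet the planned rule. IRF7 had -0.60 after 24 h and 0.70 after 48 h. OAS1 had 0.77 after 24 h and -1.20 after 48 h. IFI6 had 1.18 after 24 h and -0.51 after 48 h. The difference was not tested, since each condition has 1 library, and each change uses a different DMSO library.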

How the results depend on the processing

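The labels give no replicate numbers, and the libraries were paired by time only, in the limma fit of dose and time. Without the time term, 9 members were lower and 2 higher at 200 nM at an unadjusted p under 0.05, beside 4.27% and 6.08% of all genes. Leaving out each library in turn gave 4 to 17 lower and 0 to 4 higher at 200 nM, and 0 to 7 lower and 0 to 3 higher at 100 nM. At an adjusted p the ranges at 200 nM were 0 to 8 lower and 0 to 3 higher. The low values of 4 and 5 came without DMSO 24 h and without 200 nM 24 h, and the 7 at 100 nM came without DMSO 48 h. Median-of-ratios factors moved 0 counts, medians or single changes beyond the limits of 1.5 times for a count and 0.1 for a log2 value. With a pseudocount of 0.1, members higher were 3 with 100 nM for 24 h and 4 in DMSO 48 h against DMSO 24 h, and members lower were 12 with 200 nM for 24 h and 2 with 200 nM for 48 h. With 0.01 they were 3, 4, 13 and 2, and the median with 200 nM for 24 h was -0.35. With TPM, 3 were higher with 100 nM for 24 h and 1 was lower with 200 nM for 48 h. With a 1.5-fold threshold, higher and lower were 4 and 6 with 100 nM for 24 h, 4 and 16 with 200 nM for 24 h, 1 and 4 with 200 nM for 48 h, and 5 and 1 between the DMSO libraries, and 2 were higher with 100 nM for 48 h. When both libraries had to reach an FPKM of 1, 1 was higher with 200 nM for 24 h, 0 were lower with 100 nM for 48 h and 1 was higher between the DMSO libraries, and the median with 200 nM for 24 h was -0.46, as it was with 1 in either library. With the DMSO library of the other time, members higher were 0 with 100 nM for 24 h, 0 with 200 nM for 24 h and 2 with 200 nM for 48 h, 0 were lower with 100 nM for 48 h, and the medians after 24 h were -0.27 and -0.41. The medians after 48 h with this reference were 0.11 at 100 nM and -0.08 at 200 nM. Of 12 called changes, 10 kept their direction and 6 stayed at 2-fold, and the reversed ones were IFI6 with 100 nM for 24 h (-0.14) and OAS1 with 100 nM for 48 h (0.16). The cause of these moves was not tested. Shares of all genes were not counted in the fits that left out a library. They were also not counted under the alternative pseudocounts, filters, scalings, threshold and reference. The member counts under these settings are therefore not results about the members. Members below an FPKM of about 0.1 cannot be told from 0 at this depth.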
